A study of Bos grunniens x Bos taurus and Bos grunniens with 12 samples.

Results

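The let-7 and miR-98 family was described in 12 small RNA libraries from milk exosomes, the small membrane vesicles that cells release into milk. Its members were all entries of the deposited table named after cattle (bta) as let-7 with a letter or as miR-98, 11 of the 2263 entries in all and 11 of the 583 entries named after cattle. They comprised 9 guide-arm miRNAs, 1 for each of let-7a, b, c, d, e, f, g and i and 1 for miR-98, which are called members here, and 2 entries of the passenger arm of let-7a. No member had a further end variant under a cattle name, and the let-7e entry was itself listed as a form 1 base longer than its database sequence (let-7e_R+1).

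The libraries formed 4 groups of 3, which were milk of Jeryak in December, milk of yak in December, milk of Jeryak in June and milk of yak in June. The Jeryak is a cross of yak with Jersey cattle, named cattle-yak in the sample labels. The lactating animals were 4 to 5 years old, and no treatment was given. Exosomes of 3 animals of each breed were profiled, but the labels tied no library to an individual, and it was not stated whether the June and December milk came from the same individuals, so the p-values measured the spread between these libraries only. The month stands for everything that differed between the samplings, and its parts cannot be told apart. In the same way, less of an miRNA per exosome and fewer exosomes of the kind that carries it cannot be told apart in such samples.

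Levels were given as norm values, which are read copy numbers multiplied by 1 correction factor per library and have no fixed total. The norm values summed to between 588715 and 816871 per library. Depth differed far more, because 1 copy was worth 0.127 to 0.269 norm units in the December Jeryak libraries, 0.730 to 1.86 in December yak, 1.85 to 2.47 in June Jeryak and 1.02 to 3.30 in June yak, as read from the steps between low values. The December Jeryak libraries were therefore the deepest, and low values were the most precise there. In 2 libraries, June Jeryak 3 and June yak 3, every one of the 9 members had the lowest value of its group. Values without these libraries are given for most month differences that rested on them. The correlations given below were not taken again without them. As a check of the tissue, all 8 mammary epithelial miRNAs looked for (miR-148a, the miR-200 family with miR-141 and miR-429, miR-205 and miR-375) were found in every group, with summed norm values of 126132 to 187877 in December Jeryak, 136219 to 162689 in December yak, 147444 to 195570 in June Jeryak and 132728 to 205733 in June yak.

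The let-7 miRNAs were among the first miRNAs to be described, in the nematode worm, where let-7 times the passage from larva to adult. In mammals several genes make nearly identical mature miRNAs, which all carry the same seed, the stretch near the 5′ end that pairs with target messengers, and miR-98 belongs to the family by that seed. The family is known for restraining growth-promoting messengers, those of the RAS genes, MYC, HMGA2 and LIN28 among them, and is abundant in differentiated tissues. LIN28 proteins in turn block the maturation of let-7 precursors. The mature sequences are printed because the shared seed and the few differing bases decide how well sequencing reads can be assigned to a member. They are those of the deposited table, 5′ to 3′, with the seed (bases 2 to 8) in capitals.
bta-let-7a-5p: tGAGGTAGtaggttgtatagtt
bta-let-7b: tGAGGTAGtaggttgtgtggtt
bta-let-7c: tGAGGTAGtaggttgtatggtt
bta-let-7d: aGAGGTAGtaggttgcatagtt
bta-let-7e_R+1: tGAGGTAGgaggttgtatagtt
bta-let-7f: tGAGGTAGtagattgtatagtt
bta-let-7g: tGAGGTAGtagtttgtacagtt
bta-let-7i: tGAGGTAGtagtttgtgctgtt
bta-miR-98: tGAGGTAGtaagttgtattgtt

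All 9 members were 22 nt long and had the identical seed. Counted from 1 at the 5′ end and relative to let-7a, the changes were A19G in let-7c, T9G in let-7e and G12A in let-7f. The changes were A17G and A19G in let-7b, T1A and T16C in let-7d, G12T and T18C in let-7g, and G11A and A19T in miR-98. The most distant member was let-7i, with G12T, A17G, T18C and A19T. Of the 36 pairs of members, 4 differed by 1 base and 14 by at most 2 bases, with at most 6 differences in a pair. The authors' alignment allowed 1 mismatch, and the inferred copy numbers had fractional parts in some libraries for all members. This was so in 10 of 12 libraries for let-7a, c and f, in 8 for let-7e, 7 for let-7g and 5 for let-7b, and in 3 for let-7i and miR-98 and 2 for let-7d. The fewest copies were 9.4 of let-7e in June Jeryak 3 and 9.58 of let-7c in June yak 3. How reads were divided between near-identical members is therefore uncertain.

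The members spanned 2 orders of magnitude, from let-7b down to let-7e. Over the 12 libraries let-7b averaged 15678 norm units, which made it the 9th most abundant of the 2263 entries. Next came let-7g with 8058 (rank 16), let-7a with 4999 (rank 25), let-7f with 3274 (rank 37) and let-7i with 2025 (rank 45). The lower members were let-7d with 744 (rank 88), miR-98 with 359 (rank 122), let-7c with 269 (rank 138) and let-7e with 133 (rank 195). Some steps in this order held in each library and others did not. Thus let-7b exceeded let-7g, and let-7i exceeded let-7d, in 12 of 12 libraries. The order of let-7a over let-7f and of let-7c over let-7e held in 11 libraries, that of let-7g over let-7a and of let-7d over miR-98 in 10, that of let-7f over let-7i in 9, and that of miR-98 over let-7c in 8. The last 2 pairs of neighbours are therefore not separated beyond the spread of the libraries.

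**Figure D1:**
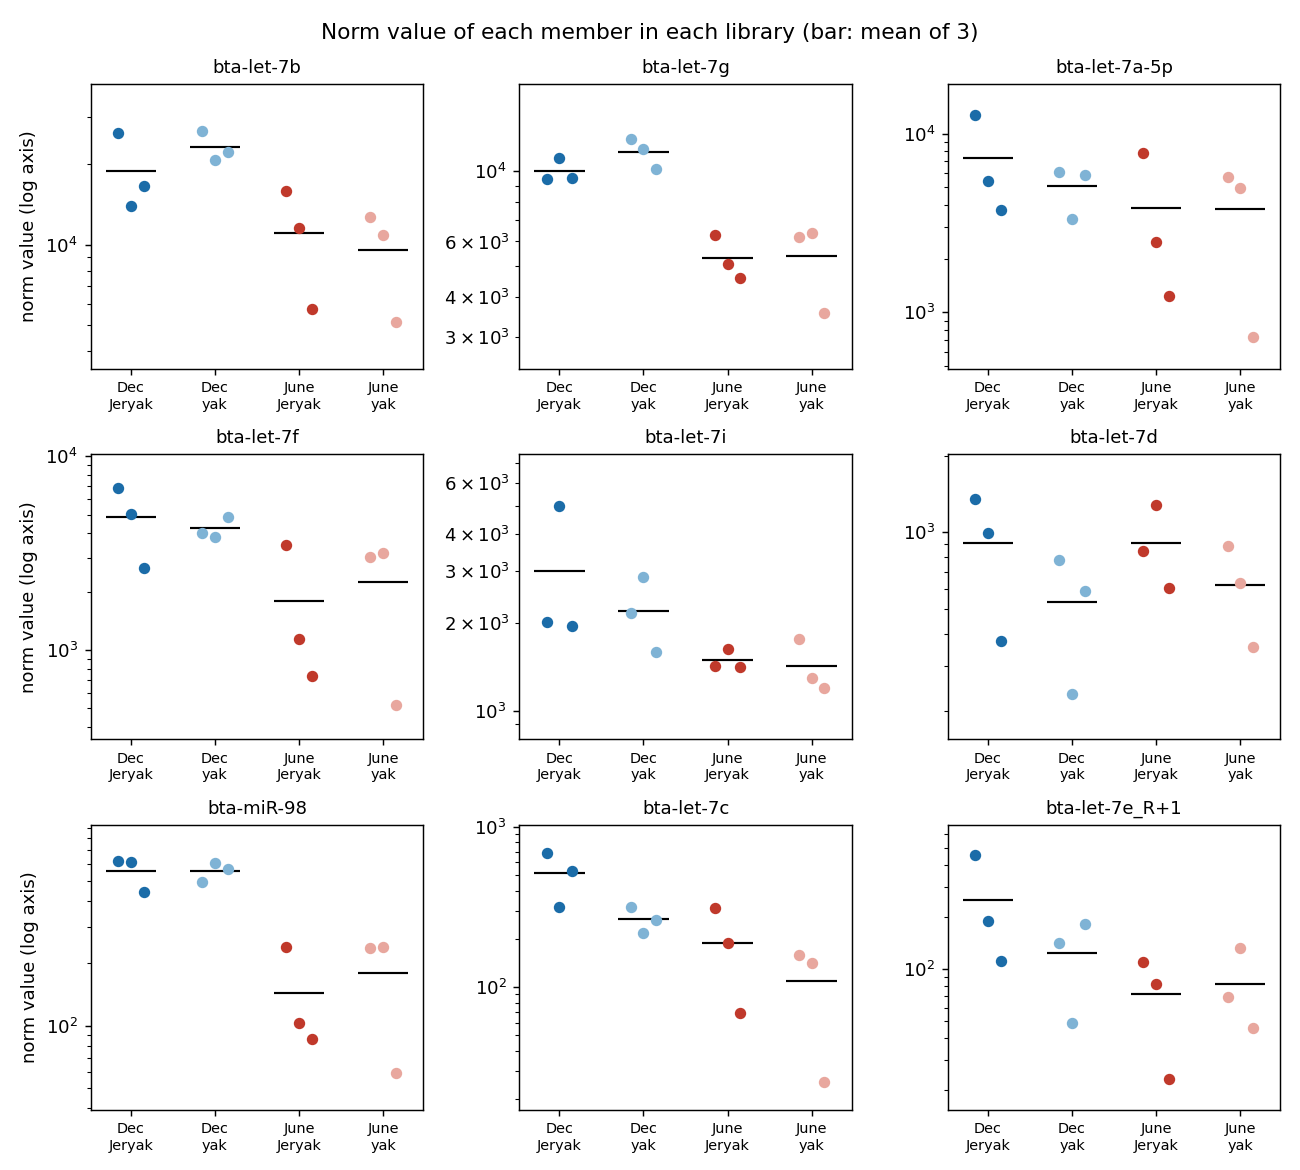
Norm value (log axis) of each of the 9 members in each of the 12 libraries, ordered by mean level, with 1 point per library and a bar at the mean of the 3 libraries of a group. In miR-98 and let-7g all December points lie above all June points of the same breed, whereas in let-7d the months overlap.

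December was set against June within each breed, to ask how the exosomal miRNAs of 1 kind of animal differed between the months. In Jeryak milk miR-98 and let-7g were called higher, and in yak milk miR-98, let-7g and let-7b were. None was called lower in either breed. The strongest change in size was that of miR-98, at about 4-fold. The calls were made with limma on log2(norm value + 1) over all 620 entries that passed a minimum of 10 norm units in at least 3 libraries, at a Benjamini-Hochberg adjusted p under 0.05, and all 9 members passed that minimum. A call in Jeryak in either direction was made for 40.8% of the entries, higher for 11.9% of all entries and for 19.9% of the 251 entries named after cattle, against 2 of 9 members. In yak 34% of the entries were called, 11.5% as higher and 14.3% of the cattle entries as higher, against 3 of 9 members. The share of members called in Jeryak was thus close to that of the cattle entries. In yak the share of members was above that of the cattle entries, but the number of members called rested on the settings. Only 1 of 9 was called in yak without a minimum norm value, where 57 of 2263 entries were called higher. With only the groups compared in the fit it was also 1 of 9, where 49 of 620 entries were. The same count of members was found without December yak 3 (51 of 620 entries) or without June yak 3 (62 of 620). The share of the cattle entries was not taken under these settings.

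The member that changed most was miR-98, whose gene lies beside a let-7f gene in mammals. It had 620, 611 and 442 norm units in the December Jeryak libraries, against 240.3, 103 and 86.4 in June Jeryak. In December yak it had 491, 606 and 569 norm units, against 238, 240.5 and 59.0 in June yak. Every December library lay above every June library of the same breed. The log2 fold change was 2.09 (SE 0.55, adjusted p = 0.00845, limma) in Jeryak, a 4.25-fold difference, and 1.87 (SE 0.55, adjusted p = 0.0188) in yak, a 3.66-fold difference. The groups averaged 557.6 ± 100.5 norm units in December Jeryak, 555 ± 58.8 in December yak, 143 ± 84.4 in June Jeryak and 179 ± 104 in June yak (SD, n = 3 each), so the December level was nearly the same in both breeds. The call in yak depended on single libraries, with a log2 fold change of 1.21 and an adjusted p of 0.0637 without June yak 3, and an adjusted p of 0.0562 without December yak 2 and 0.0526 without December yak 3. In Jeryak the call held with each library left out in turn (adjusted p at most 0.0408).

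The second most abundant member, let-7g, had the smallest standard error of the 9. It reached 9445, 11009 and 9544 norm units in December Jeryak, against 6285, 5076 and 4609 in June Jeryak. In yak it reached 12629, 11727 and 10207 norm units in December, against 6219, 6388 and 3560 in June. There was no overlap between the months in either breed. The log2 fold change was 0.92 (SE 0.28, adjusted p = 0.0175, limma) in Jeryak and 1.14 (SE 0.28, adjusted p = 0.00603) in yak, or 1.89-fold and 2.20-fold. The call in yak held with every single library left out (adjusted p at most 0.0284). In Jeryak it was lost without December Jeryak 2 (adjusted p = 0.0594) or June Jeryak 3 (adjusted p = 0.0528).

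The most abundant member, let-7b, was called in yak only, although a difference between the breeds was not shown by the test of the interaction of breed and month. It had 26626, 20722 and 22198 norm units in December yak, against 12709, 10911 and 5160 in June yak, without overlap. Its log2 fold change in yak was 1.37 (SE 0.42, adjusted p = 0.0235, limma). The adjusted p was 0.0928 without June yak 3, 0.0587 without December yak 3 and 0.0795 without December yak 1. In Jeryak it had 26133, 13997 and 16616 norm units in December, against 15811, 11510 and 5739 in June. There the lowest December library lay below the highest June library, and the log2 fold change of 0.85 (SE 0.42) had an adjusted p of 0.119. Without June Jeryak 3 the Jeryak value of let-7b was 0.44.

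Among the members that were not called within a breed, let-7f and let-7c had log2 fold changes above 1 in both breeds. In Jeryak let-7f had 6840, 5010 and 2653 norm units in December, against 3485, 1134 and 735 in June. In yak it had 4040, 3836 and 4852 norm units in December, against 3008, 3177 and 518 in June. The months overlapped in Jeryak (log2 fold change 1.66, SE 0.69, adjusted p = 0.0727) and did not overlap in yak (1.31, SE 0.69, adjusted p = 0.159). Without June yak 3 the yak value of let-7f was 0.45, and without June Jeryak 3 the Jeryak value was 1.18. For let-7c, which differs from let-7a only at base 19, the December Jeryak libraries held 687, 318 and 531 norm units, against 309, 187 and 69.1 in June Jeryak. The December yak libraries held 317, 218 and 260.4 norm units of let-7c, against 159, 140.3 and 25.7 in June yak. These did not overlap in either breed, and the log2 fold changes of 1.61 (SE 0.70, adjusted p = 0.0798) and 1.64 (SE 0.70, adjusted p = 0.0843) missed the threshold. They were 1.02 in Jeryak without June Jeryak 3 and 0.81 in yak without June yak 3, so the size of these differences rested on those libraries.

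For let-7a, the best known member, the spread within groups was as wide as the difference between months. It had 12679, 5429 and 3741 norm units in December Jeryak, against 7787, 2485 and 1227 in June Jeryak. In yak it had 6086, 3321 and 5889 norm units in December, against 5678, 4938 and 725 in June. The libraries overlapped in both breeds, with log2 fold changes of 1.15 (SE 0.80, adjusted p = 0.263) and 0.85 (SE 0.80, adjusted p = 0.431). Without June yak 3 the yak value turned to −0.11, so its direction rested on that library, and without June Jeryak 3 the Jeryak value was 0.53.

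Of the less abundant and more divergent members, let-7i had 2019, 5008 and 1952 norm units in December Jeryak, against 1425, 1623 and 1414 in June Jeryak. In December yak it had 2155, 2862 and 1586 norm units, against 1759, 1298 and 1202 in June yak. The months did not overlap in Jeryak and overlapped in yak, and neither log2 fold change (0.86, SE 0.38, adjusted p = 0.0860 and 0.61, SE 0.38, adjusted p = 0.233) passed. The rarest member, let-7e_R+1, had 455, 191 and 111 norm units in December Jeryak, against 110.5, 82.1 and 23.2 in June Jeryak. In yak let-7e_R+1 had 142, 49.0 and 183 norm units in December, against 69.3, 133 and 45.6 in June. The highest June Jeryak value lay just under the lowest December Jeryak value, the yak libraries overlapped, and the log2 fold changes were 1.82 (SE 0.75, adjusted p = 0.0682) and 0.53 (SE 0.75, adjusted p = 0.60). Without June Jeryak 3 the Jeryak value of let-7e_R+1 was 1.15, and without June yak 3 the yak value was 0.17.

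The exception was let-7d, the only member that begins with a base other than T. It had 1350.3, 993 and 374 norm units in December Jeryak, against 848, 1276 and 605 in June Jeryak. In yak it had 783, 232 and 591 norm units in December, against 888, 631 and 354 in June. The libraries of both months overlapped throughout. Its log2 fold changes of −0.13 (SE 0.58, adjusted p = 0.866) in Jeryak and −0.29 (SE 0.58, adjusted p = 0.720) in yak were smaller than their errors. The sign changed in Jeryak without December Jeryak 3 (0.42) or June Jeryak 2 (0.15), and in yak without December yak 2 (0.22) or June yak 1 (0.0081), and the yak value was 0.0039 when libraries were scaled to the same sum of cattle entries.

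**Figure D2:**
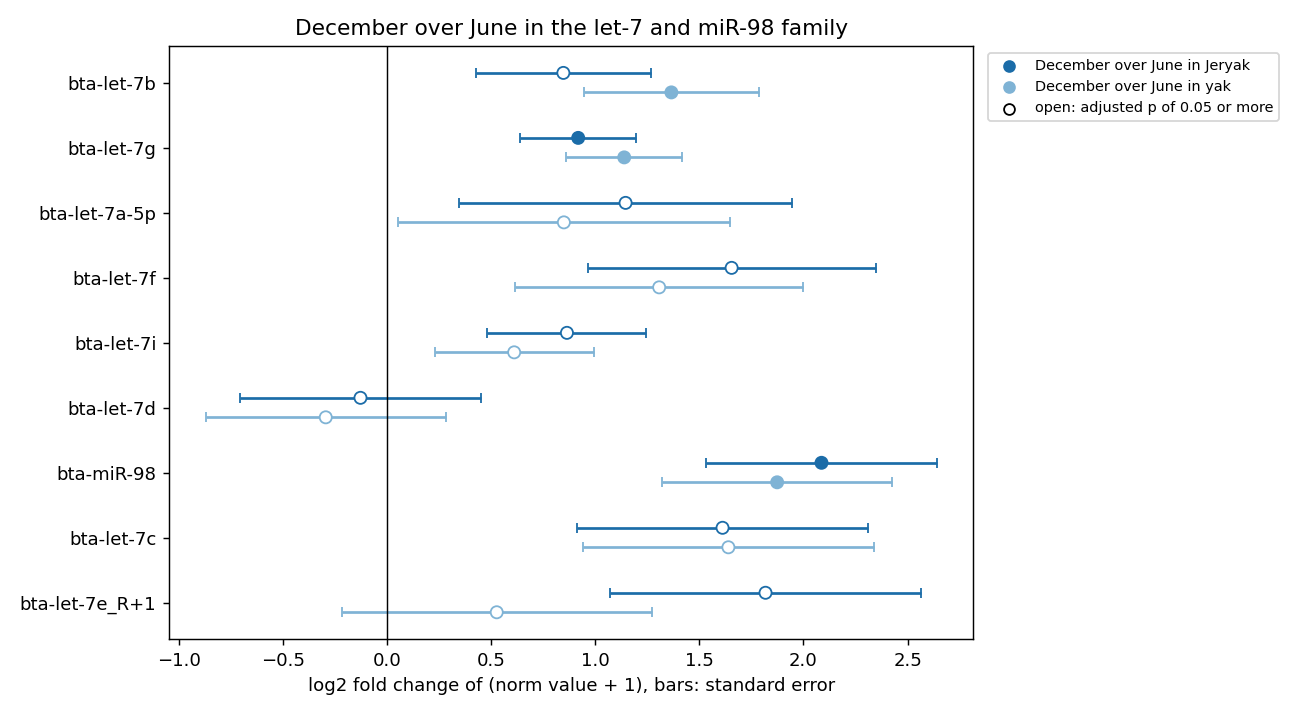
Log2 fold change of (norm value + 1), December over June, of each member in Jeryak and in yak, with bars of 1 standard error from limma, filled where the adjusted p was under 0.05. All members except let-7d lie to the right of 0 in both breeds, and miR-98 has the largest value in each.

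When the December over June differences of both breeds were averaged in the same limma fit, 6 of 9 members were called higher and none lower, where 58.4% of all entries were called, 20.3% as higher and 31.5% of the cattle entries as higher. The members called were miR-98 (log2 fold change 1.98, adjusted p = 0.000921), let-7c (1.63, 0.0130), let-7f (1.48, 0.020), let-7b (1.11, 0.00666), let-7g (1.03, 0.000732) and let-7i (0.74, 0.0323). Those not called had log2 fold changes of 1.17 in let-7e_R+1 (adjusted p = 0.0720), 1.00 in let-7a (0.148) and −0.21 in let-7d (0.670). With each of the 12 libraries left out in turn, the call of let-7i held 6 times and that of let-7f 10 times. Those of let-7b, let-7c, let-7g and miR-98 held all 12 times. Without both June libraries numbered 3, 4 of 9 members were still called, where 113 of 620 entries were called higher. There let-7f (0.81, adjusted p = 0.0870) and let-7i (0.66, adjusted p = 0.104) no longer passed. With these 2 libraries left out, 2 members were called in Jeryak and 3 in yak, the same members as with them. In that setting 66 of 620 entries were called higher in Jeryak and 59 in yak.

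The median log2 fold change over the 9 members was 1.15 in Jeryak, where that of all 620 entries was −0.61 and that of the 251 cattle entries 0.56. In yak the median of the members was 1.14, that of all entries −0.59 and that of the cattle entries 0.20. Without June yak 3 the yak medians were 0.50 for the members, −0.31 for all entries and 0.23 for the cattle entries, and without June Jeryak 3 the Jeryak medians were 0.83, −0.47 and 0.50 in the same order. Other scalings moved the reference, because with each library scaled to the same total the median of all entries in yak was −0.35 and that of the cattle entries 0.45. With scaling to library totals or to the sum of cattle entries, every member kept the sign given above, except let-7d in yak with cattle entries. Libraries did not overlap for 5 of 9 members in Jeryak (let-7c, e, g, i and miR-98) and 5 of 9 in yak (let-7b, c, f, g and miR-98), all of them higher in December. Over all entries tested, all December libraries lay above all June libraries for 16% in Jeryak and 17.4% in yak. This share was not taken for the cattle entries alone, whose median change was higher, so the comparison holds against all entries only.

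As a whole the family took up a larger mean share of the libraries in December. The 9 members together made up 6.96% ± 2.28 of all norm values in December Jeryak and 3.65% ± 1.79 in June Jeryak, and 7.95% ± 0.700 in December yak and 3.28% ± 1.47 in June yak (SD, n = 3 each). The summed norm values were 60228, 42566 and 35963 in December Jeryak, against 36302, 23476 and 14508 in June Jeryak. They were 53270, 43573 and 46334 in December yak, against 30727, 27857 and 11650 in June yak. The months overlapped narrowly in Jeryak and were apart in yak, where the mean sum was 2.04 times that of June. With June yak 3 left out it was 1.63 times, still without overlap, and in Jeryak the ratio was 1.87 with all libraries and 1.55 without June Jeryak 3.

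Markers of another cell type moved between the months as well. Of 5 leukocyte miRNAs looked for, 4 were listed (miR-142, miR-150, miR-155 and miR-342), and miR-223 was not listed. Their sums ranged over 701 to 7636 norm units in December Jeryak against 88.8 to 233 in June Jeryak, and over 446 to 663 in December yak against 110 to 314 in June yak. All 4 were called higher in December in Jeryak and 1 (miR-150) in yak. For comparison, 11.9% of all entries and 19.9% of the cattle entries were called higher in Jeryak, and 11.5% and 14.3% in yak. The value of miR-150 was 0 in each of the 6 June libraries. It thus passed the minimum for testing only through December libraries, which favoured its calls. The highest sum, 7636, was that of December Jeryak 2, the library that also held the highest let-7i value, 5008. Within December Jeryak, let-7g was highest there too, let-7b and let-7c were lowest there, and the other members lay between. Without that library the log2 fold change of let-7i in Jeryak was the lowest of its range, 0.42. The part of these cells in the differences of the family was not tested. Of the epithelial miRNAs, 1 of 8 (miR-205) was called higher in December in Jeryak and 0 in yak.

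The breeds were compared within each month. In December, 0 of 9 members passed in Jeryak over yak, where 5.97% of all entries were called. The log2 fold changes ran between −0.34 and 0.97, and the lowest adjusted p was 0.662 (limma). In June, 0 of 9 passed where 5% of all entries were called, with log2 fold changes between −0.32 and 0.92 and a lowest adjusted p of 0.494. Averaged over the months 0 of 9 passed where 6.61% were called, with values between −0.11 and 0.91 and a lowest adjusted p of 0.309. At an unadjusted p under 0.05 the count was also 0 of 9 in each of these comparisons. The only member whose libraries did not overlap between the breeds was let-7c in December, with 687, 318 and 531 norm units in Jeryak against 317, 218 and 260.4 in yak, at a distance of less than 1 unit between the nearest libraries. For comparison, all Jeryak libraries lay above all yak libraries for 13.5% of all entries in December. In June no member was above in all Jeryak libraries, where 7.9% of all entries were. The standard errors, 0.28 for let-7g and 0.42 for let-7b up to 0.80 for let-7a, show what breed differences 3 libraries a group could miss.

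Whether the month difference differed between the breeds was tested as December over June in Jeryak minus December over June in yak. None of the 9 members passed, where 5.48% of all entries did, and 0 of 9 had an unadjusted p under 0.05. The values ran from −0.52 in let-7b to 1.29 in let-7e_R+1, with a lowest adjusted p of 0.510. The call of let-7b in yak alone was therefore not accompanied by a measured difference between the breeds.

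The make-up of the family was compared as shares of its sum. Together let-7b and let-7g made up between 58.7% and 74.8% of the family in every library. Against this background the share of miR-98 was larger and that of let-7d smaller in December, which is given as a description without a test. The share of miR-98 was 1.03%, 1.44% and 1.23% in December Jeryak, against 0.662%, 0.439% and 0.595% in June Jeryak. In yak its share was 0.922%, 1.39% and 1.23% in December, against 0.773%, 0.863% and 0.507% in June. Every December library was above every June library of its breed, and the mean share was 2.18 times as high in Jeryak and 1.65 times as high in yak (2.24 and 1.44 without both June libraries numbered 3, with no overlap).

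The share of let-7d differed in the opposite direction, although the norm values of let-7d overlapped between the months (log2 fold changes −0.13 in Jeryak and −0.29 in yak). A share also falls when the other members rise, so a smaller share is not in itself a decrease of let-7d. Its share was 2.24%, 2.33% and 1.04% in December Jeryak, against 2.34%, 5.43% and 4.17% in June Jeryak. In yak its share was 1.47%, 0.533% and 1.28% in December, against 2.89%, 2.26% and 3.04% in June. All December libraries were lower, although in Jeryak by a margin of 2.33% against 2.34% between the nearest libraries, and the mean share was 0.470 of that in June in Jeryak and 0.400 in yak (0.482 and 0.424 without both June libraries numbered 3). Of the other members only let-7b in yak had shares that did not overlap between months, at 48.5% ± 1.31 in December and 41.6% ± 2.57 in June (SD, n = 3 each). Between the breeds in December the share of let-7c was higher in all Jeryak libraries (2.03 times the mean of yak) and that of let-7b lower in all of them, and in June the shares of all 9 members overlapped. The shares of a library sum to the whole, so each depends on the others. No background was taken for how often such shares separate between 3 and 3 libraries.

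**Figure D3:**
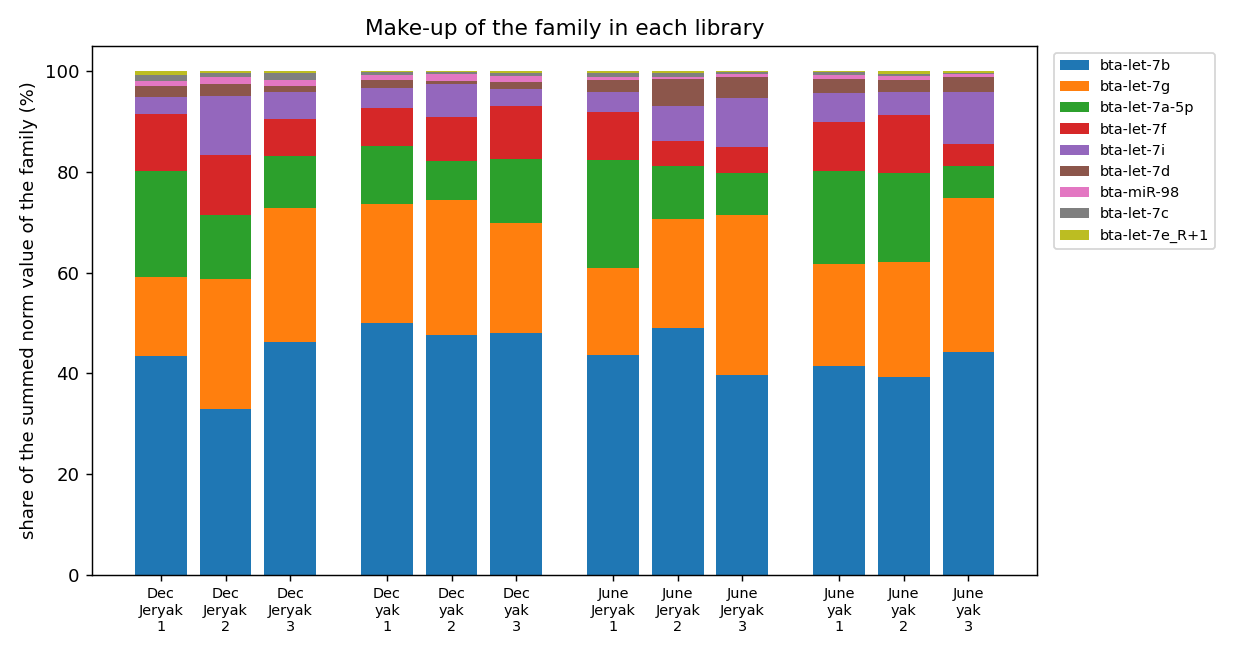
Share (%) of each member in the summed norm value of the 9 members, stacked for each of the 12 libraries. The lower blocks, let-7b and let-7g, together reach 58.7% to 74.8% in every library, and let-7i is broad in December Jeryak 2.

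**Figure D4:**
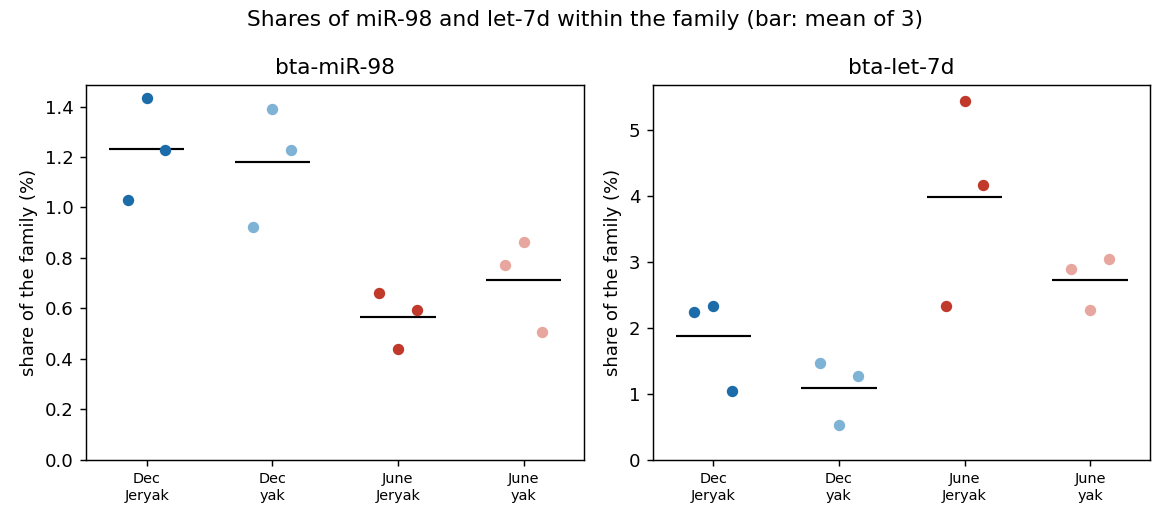
Share (%) of miR-98 (left) and of let-7d (right) in the summed norm value of the family, with 1 point per library and a bar at the mean of 3. The December shares of miR-98 lie above, and those of let-7d below, the June shares of the same breed.

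Across the 12 libraries most members varied together, let-7d and in part let-7i excepted. Over the 36 pairs the Pearson correlation of log2 values had a median of 0.711 and ranged from −0.029 to 0.963. The 8 pairs with let-7d had a median of 0.223 and a highest value of 0.529, against a median of 0.790 and a lowest value of 0.318 for the 28 pairs without it. That lowest value was for let-7i with let-7e_R+1, and let-7i also stood low with let-7a (0.341) and let-7b (0.441). The closest pairs were let-7g with miR-98 (0.963), let-7f with miR-98 (0.943) and let-7a with let-7f (0.938). These values are descriptions, since the points share the library, its correction factor and, for near-identical members, reads.

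The 2 remaining entries of the family, let-7a-3p and its form 1 base longer, come from the passenger arm, the strand of the let-7a hairpin that is usually discarded. Their sequences are shown because they have a seed (capitals) unlike that of the guide arm.
bta-let-7a-3p: cTATACAAtctactgtctttc
bta-let-7a-3p_R+1: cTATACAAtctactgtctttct

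The longer form was the more abundant, with 237, 182 and 267 norm units in December Jeryak, against 419.5, 171 and 205 in June Jeryak. In yak it had 200.3, 222 and 349 norm units in December, against 109, 190.1 and 146 in June. It overlapped between months in Jeryak and not in yak. Its log2 fold changes of −0.12 (adjusted p = 0.844) and 0.78 (adjusted p = 0.186) were not called, nor were those of the shorter form (0.32, adjusted p = 0.636 and 0.63, adjusted p = 0.355), which ranged from 56.8 to 164 norm units.

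The ratio of the guide arm of let-7a to this passenger form varied widely between libraries of 1 group. It was 53.4, 29.9 and 14.0 in December Jeryak and 30.4, 14.9 and 16.9 in December yak. It was 18.6, 14.6 and 5.99 in June Jeryak and 52.1, 26 and 4.96 in June yak. The lowest ratios were those of June yak 3 and June Jeryak 3, the libraries in which every guide-arm member was at its group's lowest, while their passenger values of 146 and 205 norm units lay between those of the other June libraries of their breed. A ratio within a library shows unequal levels of the arms and not which of them differed.

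**Figure D5:**
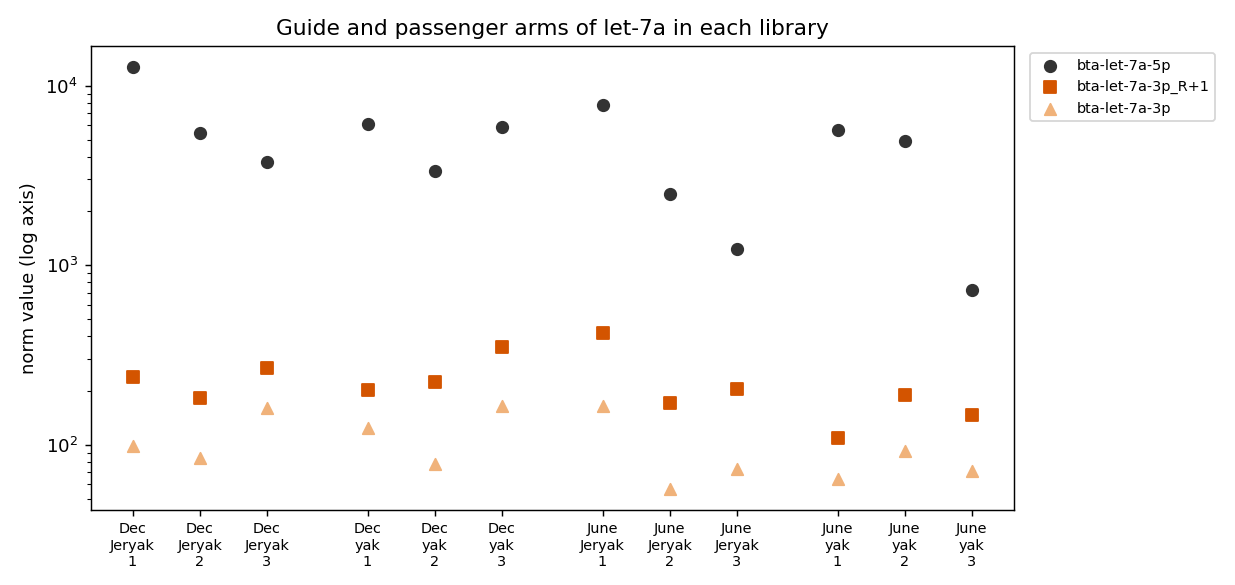
Norm value (log axis) of the guide arm of let-7a (bta-let-7a-5p) and of both entries of its passenger arm in each of the 12 libraries. The guide arm spans 725 to 12679 norm units and the longer passenger form 109 to 419.5, and the arms are closest in June Jeryak 3 and June yak 3.

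Passenger arms of other let-7 hairpins appeared in the table under the names of other species. There were 13 let-7 or miR-98 entries of other species, 9 of them passenger arms and 4 guide arms. Goat-named let-7f-3p (chi-let-7f-3p_R-1) had 16.1, 19.2 and 25.9 norm units in December Jeryak, against 0, 10.5 and 0 in June Jeryak, and 11.7, 18 and 59.6 in December yak, against 0, 5.10 and 0 in June yak. It was called higher in both breeds (log2 fold change 3.22, adjusted p = 0.0405, and 3.74, adjusted p = 0.0235, limma), at a level near the limit of the June libraries, where 3 copies are worth 5.54 to 7.40 norm units in Jeryak and 3.06 to 9.90 in yak. Goat-named let-7g-3p (chi-let-7g-3p_1ss22CT) had 10.5, 5.71 and 7.28 norm units in December Jeryak, against 0 in all 3 June Jeryak libraries, and 10.9, 29.4 and 0 in December yak, against 0 in all 3 June yak libraries. It was called higher in Jeryak (adjusted p = 0.0359, limma) and in the average over breeds (adjusted p = 0.00515), and in yak its adjusted p was 0.0588. Only its December values of 10.5, 10.9 and 29.4 reached the minimum of 10 norm units, so it was tested only because of the month in which it was high. Goat-named let-7f-3p also passed that minimum through its December libraries. The calls of both entries are therefore favoured by the minimum and add nothing to the values themselves. The values of 10.5, 10.9 and 29.4 lay above the 3-copy level of every June library. Those of 5.71 and 7.28 lay within the range of those levels, and December yak 3 had 0. The more abundant goat-named let-7b-3p was called only in the average over breeds (log2 fold change 1.29, adjusted p = 0.0249), and opossum-named let-7f-2-3p differed by 0.0048 on that scale (adjusted p = 0.989).

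Of the 13 entries with the let-7 seed, 9 were the members and 4 were guide arms named after other species, and no predicted candidate had it. The most abundant of these 4 averaged 8.86 norm units, a small amount beside the members. It was named after mouse let-7j and had the sequence of let-7i with 2 more bases at its 3′ end, and another was let-7c with the same 2 bases added.
mmu-let-7j_1ss8TG: tGAGGTAGtagtttgtgctgttat
mmu-let-7c-5p_R+2: tGAGGTAGtaggttgtatggttat

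The extended let-7i had 9.04, 83.5 and 8.62 norm units in December Jeryak, against 0 in all 3 June Jeryak libraries, and 5.11, 0 and 0 in December yak, against 0 in all 3 June yak libraries. Its highest value fell in December Jeryak 2, as did that of let-7i. The extended let-7c had 0.975, 2.54 and 1.75 norm units in December Jeryak and was listed at 0 elsewhere. There 3 copies are worth 2.19 norm units in December yak 1 and at least 3.06 in the other 8 libraries, so values of this size were near or under that level.

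The let-7 genes of mammals lie partly in clusters with miR-99a, miR-99b, miR-100, miR-125a and miR-125b. None of the entries taken for these neighbours was called higher in December in either breed. In Jeryak miR-125a was called lower (log2 fold change −1.28, adjusted p = 0.0158, limma). In the average over breeds miR-125a (−0.94, 0.00955), miR-125b (−0.72, 0.0154) and miR-99a (−0.68, 0.0439) were called lower, while miR-99b (−0.51, 0.158) was not. The entry taken for miR-100 was listed with a changed base at position 16 (miR-100_R-1_1ss16AT). It held the same norm values as miR-99a in all libraries. Both entries count as 1 measurement, and no separate value for miR-100 was obtained. For miR-125a the December Jeryak libraries had 653, 537 and 406 norm units, against 1482, 1630 and 854 in June Jeryak, without overlap, and the December yak libraries had 875, 533 and 1046, against 1498, 1262 and 891 in June yak, with overlap.

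The pattern most like that of the summed family over the 12 libraries, among 240 cattle entries outside it, was that of miR-664b_R+1 (Pearson r of log2 values 0.920). It was followed by miR-26b (0.900), miR-30c_R+1 (0.878), miR-374b_R-1 (0.877) and miR-23b-3p_R-5 (0.877), where the median entry had 0.146. Of these, miR-26b was as abundant as let-7g, with a mean of 8070 norm units. The points share the libraries and their correction factors, and the entries were chosen for their likeness, so these values only describe.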

How the data were processed

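The series holds 12 small RNA libraries of milk exosomes, sequenced as single-end 50 bp reads, in 4 groups of 3 taken from the sample labels. The authors trimmed and filtered the reads, matched them to miRBase precursors with ACGT101-miR, allowing end variation and 1 mismatch, and deposited 1 table of norm values, a signal that equals the copy number times 1 correction factor per library. Between 73.7% and 85.9% of the values above 0 in a library were whole multiples of its inferred value of 1 copy (tolerance 0.02), so no count test was run. The content of 1 line of the table is not reported here.

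Values were tested as log2(norm value + 1) with limma 3.58.1 in R 4.3.3 (moderated test with a variance trend, 1 mean per group, all 12 libraries), over the 620 entries with at least 10 norm units in at least 3 libraries, with Benjamini-Hochberg adjustment over them and a threshold of 0.05. Fold changes on this scale understate those of low entries. Library 3-copy floors cover counting error only. Tables and plots were made with Python 3.11.15, pandas 2.3.3 and matplotlib 3.10.9, and the fit was tested on simulated data. Members were the highest entry per letter, and like entries the 5 most correlated cattle entries. Members, marker lists and neighbours were chosen with earlier results of these data known. Sequences are those of the deposited table. No genome was used here. Red cell, muscle, liver and neural markers were also looked for, and the red cell marker miR-486 was called lower in December in both breeds. Only 1 muscle and 1 liver entry passed the minimum for testing, and neither was called between months in either breed. No neural entry passed it, so that list was not tested. Alternatives are given with the closing observations.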

Additional observations from a re-analysis of the deposited data

How the results depend on the processing

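The number of members called higher in December was 2 in Jeryak, 3 in yak and 6 in the average over breeds. Of all 620 entries, 74, 71 and 126 were called higher in the same order. Without a minimum norm value it was 1 member in Jeryak and 1 in yak, where 53 and 57 of 2263 entries were. With only the groups compared in the fit it was 1 in yak (49 of 620 entries). With single libraries left out it ranged from 1 to 6 in Jeryak, from 1 to 3 in yak and from 4 to 8 in the average. In Jeryak it was 1 without December Jeryak 2 (42 of 620 entries) or June Jeryak 3 (54 entries). It was 6 there without June Jeryak 1 (76 entries) and 4 without June yak 3 (87 entries). In yak it was 1 without December yak 3 (51 entries) or June yak 3 (62 entries). The causes were not tested. The breed comparisons and the interaction gave 0 under every alternative run. A pseudocount of 10, scaling to library totals or to cattle entries, cattle entries alone and 1 variance per group kept all counts within 1.5 times. No member has a second guide-arm entry under a cattle name, so summing those changes nothing. Adding the mouse-named extended forms to let-7i and let-7c, an alternative chosen after seeing the data, gave the same counts (let-7i 0.88 and let-7c 1.62 in Jeryak).

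The replicate number as a block gave 3 members in Jeryak, where let-7f passed (log2 fold change 1.66), 3 in yak and 6 in the average. With that block 77, 71 and 124 of all 620 entries were called higher in the same order. Deviations of same-numbered libraries correlated at −0.062 to 0.138. Best matches were sought from the first group of a comparison to the second. The same-numbered library was the best match for at most 2 of 3 libraries. The numbers were not taken to pair the libraries.

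Values that changed sign were all uncalled. That of let-7d in yak was 0.0039 with cattle totals and ranged over −0.65 to 0.22 with single libraries left out, against −0.51 to 0.42 in Jeryak and −0.40 to 0.060 in the average. That of let-7a in yak was −0.11 without both June libraries numbered 3, likewise chosen after seeing the data, and ranged over −0.11 to 1.38 with single libraries left out. The call of miR-98 in Jeryak and that of let-7g in yak held under 22 of 22 alternatives, let-7g in Jeryak under 19, miR-98 in yak under 17 and let-7b in yak under 16. Depth limits let-7c and let-7e most, with under 10 copies in their shallowest June libraries.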
